A study of Sus scrofa with 39 samples.

Results

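The blood of control piglets (CON), those without necrotizing enterocolitis (NEC), an inflammatory necrosis of the immature bowel, is described here as a baseline. Its members are all samples that the labels give the severity Con, 19 of the 39 in the series; the 11 mild and 9 severe NEC piglets were not used. All were preterm, formula-fed piglets examined at necropsy on day 5, and each gave 1 whole-blood library. The sources used here give no day of the blood draw, no strain and no gestational age. The labels put 7 controls in batch 1 (3 male, 4 female), 5 in batch 2 (4 male, 1 female) and 7 in batch 3 (4 male, 3 female), so 11 were male and 8 female. Library names in the labels fall into 3 series: R1707 covers batch 1, FKDL covers batch 2 and 3 male piglets of batch 3, and BKDL covers the other 4 piglets of batch 3, 1 male and 3 female. The piglets are called CON 1 to 7 in batch 1, CON 8 to 12 in batch 2 and CON 13 to 19 in batch 3, of which CON 16 to 19 are BKDL libraries. The number in the piglet's title splits batch 1 further: it is 17 for CON 1 and 2 and 16 for CON 3 to 7.

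Whole blood holds red cells, platelets and several kinds of white cell. Mature mammalian red cells have no nucleus, but the youngest of them, the reticulocytes, still carry RNA, most of it for haemoglobin; they are plentiful around birth, and platelets too carry RNA from the megakaryocytes that made them. White cells (neutrophils, monocytes, lymphocytes) express many more genes, so a blood library is a small number of red cell transcripts and a long tail of others. Library values below are read counts per gene, or shares of the counts on genes; a share is a share of reads, and since no transcript lengths were used, longer transcripts take more reads at the same number of molecules. Scaled levels are CPM, counts per mega (M) of counts, after TMM scaling, which sets libraries equal over the bulk of their genes instead of over all reads.

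The libraries held 12.8 to 23.0 M (mega) counts on genes, with a mean of 17.6 M (SD 2.35, n = 19). Of the 25880 genes in each file, 9617 had a count in every control library, 5865 had at least 10 counts in every one, and 8336 had none in any. Blood identity was checked with defining markers. ALB, TTR, APOB and EPCAM, which mark liver and epithelium, had at most 6 counts in any library, and SERPINA1, the liver's main protease inhibitor, had 0 in all 19. Other genes of the same list were not absent, and which cells their reads came from was not tested. Of its 20 genes, 17 had a count in some library and 9 passed the count filter, PECAM1, CDH1, CDH5 and COL1A1 among them. On the TMM scale 8 of the 9 read above batch 1 in each later batch. The list held 0.0153 to 0.0333% of the counts outside the 10 most abundant genes. Markers of each blood lineage were present: the median was 68.5 CPM for CD14 (monocytes), 33.2 CPM for CD3E (T cells) and 14.1 CPM for CD79A (B cells). KDM5D, a Y-linked gene, had 9 to 129 counts in the 11 males and 0 or 1 in the 8 females, and EIF1AY had 34 to 223 counts in males and 0 or 1 in females, so labelled sex and Y-linked reads matched in all 19. Libraries CON 16 and CON 10 stood apart from the others, and values without them are given where they decide a result. CON 11 had the next lowest share on the 10 most abundant genes after CON 16, at 59.2%. Gene calls that were lost without CON 11 are given below.

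Red cell RNA filled these libraries. HBB, the beta-globin gene (chr9:4800683-4801941, Sscrofa11.1), took 23.4% of counts in the lowest piglet, 58.1% in the median one and 67.8% in the highest (mean 56.2% ± 9.93 SD, n = 19). It was the most abundant gene in every piglet. In batch 2 its share was 51.0%, 63.3%, 54.0%, 40.7% and 55.7% in CON 8 to 12. The second gene in every piglet, ENSSSCG00000007978, has no symbol in the tables used and took 10.9 to 31.4% (median 22.9%). CON 16 was lowest for both, and every other piglet had at least 40.7% on HBB.

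The 10 most abundant genes together held 82.8% ± 12.9 of counts (SD, n = 19), from 40.2% in CON 16 to 93.1% in CON 7, with a median of 87.6%; without CON 16 the mean was 85.1% ± 7.99. After the leading pair came ALAS2, whose enzyme makes the first and rate-limiting step of haem synthesis in red cells, at 1.17% (0.722 to 1.65%). TPT1, encoding the translationally controlled tumour protein, followed at 1.14% (0.573 to 2.23%), then ENSSSCG00000014540, without a symbol, at 0.308%. HBM, an alpha-like globin (0.250%), KXD1, a subunit of a complex that positions lysosomes (0.201%), RPLP0, a ribosomal stalk protein (0.198%), ATP5IF1, the inhibitor of the mitochondrial ATP synthase (0.185%), and the mitochondrially encoded oxidase subunit COX1 (0.166%) completed the set. These 8 did not keep one order: ATP5IF1 ranked from 5 to 119 over the piglets and RPLP0 from 5 to 23, while TPT1 was always 3 or 4.

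**Figure D1:**
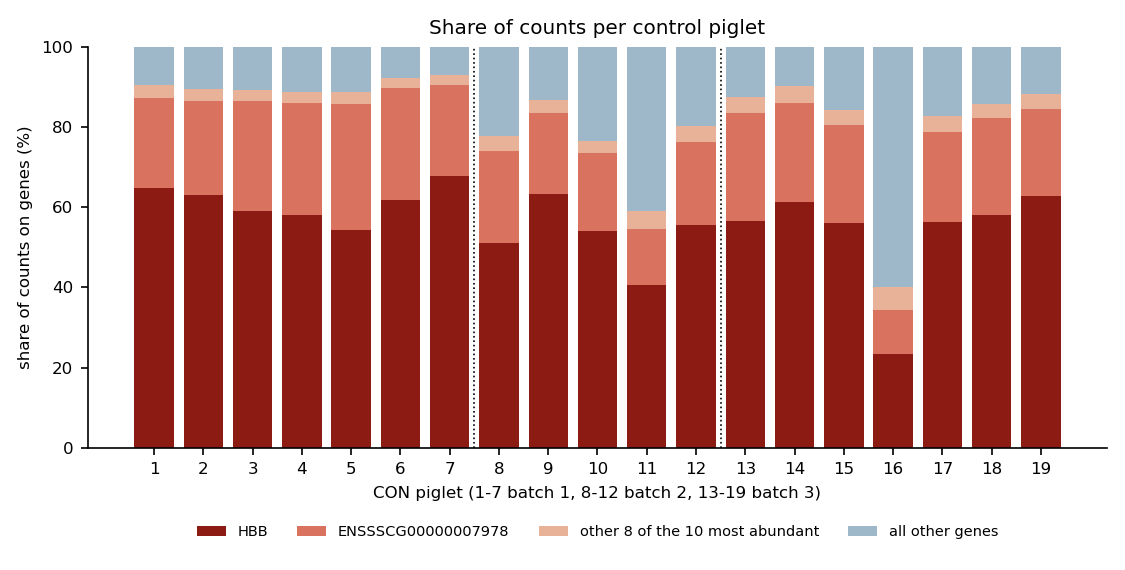
Stacked bars give, for each of the 19 control piglets on the horizontal axis, the share of counts on genes in percent held by the most abundant genes and by all others. HBB and ENSSSCG00000007978 fill most of each bar except that of CON 16, where the 10 most abundant genes hold 40.2%.

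What remained for all other genes was small and uneven. The counts outside the 10 most abundant genes were 1.10 to 1.88 M in the 7 batch 1 libraries, 5.09, 2.53, 4.54, 7.33 and 3.55 M in CON 8 to 12, and 1.52 to 11.48 M in batch 3, where CON 16 held the highest value and the next, CON 17, had 3.65 M. Batch 1 therefore gave the genes of the tail the fewest reads on average, and its low genes are the least precisely measured. Genes with at least 1 count numbered 11584 to 12829 in batch 1, 12678 to 14720 in batch 2 and 12054 to 13892 in batch 3.

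The genes with a symbol that came next were a mixture of cytoskeletal, ribosomal and late red cell genes. ACTB, the cytoplasmic beta-actin, led with 0.143% of counts (0.0328 to 0.750%), and FLNA, which cross-links actin, and ACTG1 held 0.113% and 0.109%. The ribosomal protein genes RPS24, RPL6, RPLP1 and RPL10 held 0.115%, 0.109%, 0.0835% and 0.0702%. Genes known from maturing red cells were AHSP, the chaperone of free alpha-globin (0.0989%), UBB, a ubiquitin gene (0.0943%), SLC25A39, a mitochondrial carrier needed for haem production (0.0760%), and UBE2O, a ubiquitin-conjugating enzyme that clears proteins from reticulocytes (0.0692%). R3HDM4 (0.114%), OAZ1, an inhibitor of polyamine synthesis (0.105%), the histone gene H3-3A (0.102%), the ubiquitin ligase gene RNF10 (0.0815%) and the glycolytic enzyme gene ALDOA (0.0802%) were also among them. Of the 30 most abundant genes of any kind, 7 had no symbol.

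Some of these shares were steady and some were not. As a share of all counts, OAZ1 had the narrowest range of them, from 0.0735 to 0.141%, a ratio of 1.92, and H3-3A followed at 2.08. On the TMM scale neither was steady: OAZ1 ran from 296 to 3178 CPM and H3-3A from 232 to 2977 CPM. The share of AHSP ran from 0.0153% in CON 16 to 0.224% in CON 4. TGM3, a transglutaminase best known from the epidermis, had a mean of 0.0689% but a median of only 0.0120%: CON 16 reached 0.868%, and CON 19 was lowest at 0.000445%. Ranked by the median share instead of the mean, 27 of the 30 leading genes stayed, and HEPACAM, FTL and TGM3 dropped out.

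**Figure D2:**
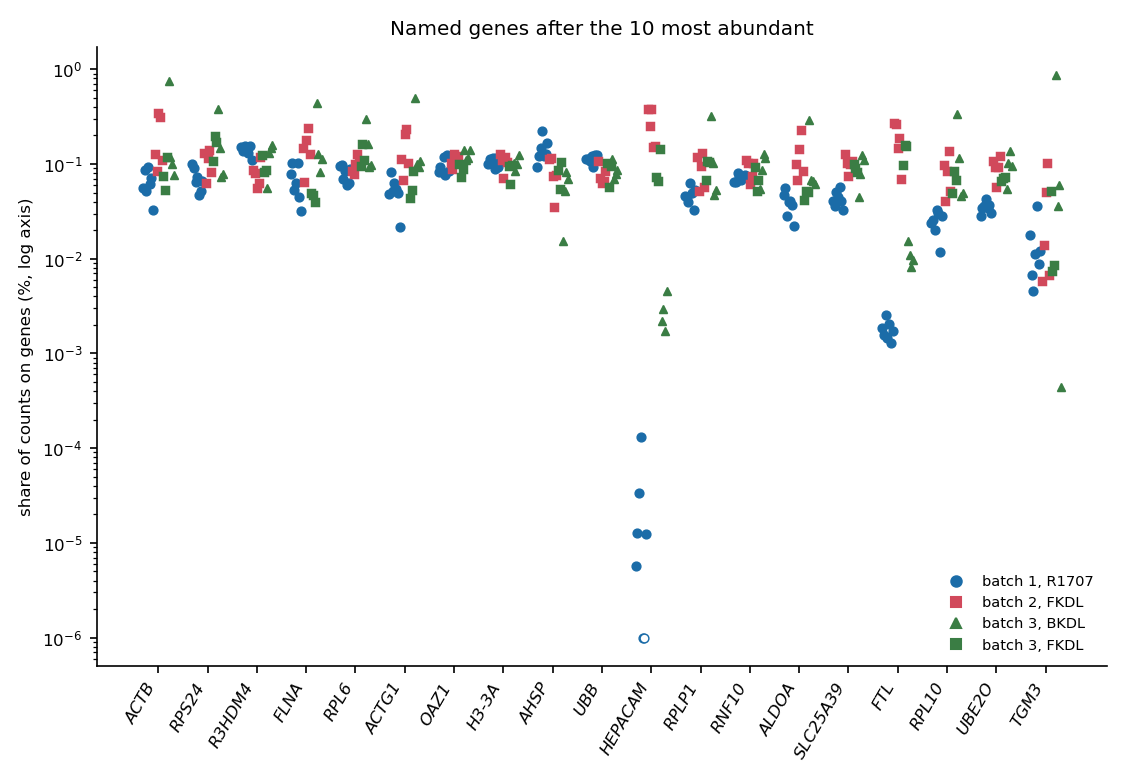
Each point is 1 control piglet's share of counts on genes in percent, on a log axis, for named genes after the 10 most abundant, coloured by batch. OAZ1 and H3-3A form tight columns on this scale, though not on the TMM scale, while HEPACAM, FTL and TGM3 spread over orders of magnitude, HEPACAM and FTL in steps that follow the library series.

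HEPACAM, a cell adhesion gene known from liver and glial cells (chr9:52115494-52131801), had 1, 2, 6, 19, 0, 0 and 2 counts in CON 1 to 7. Its counts were 87570, 47745, 73302, 27025 and 27459 in CON 8 to 12, 12708, 11000 and 27633 in the FKDL libraries CON 13 to 15, and 420, 633, 269 and 583 in the BKDL libraries CON 16 to 19. The 3 library series did not overlap: within batch 3, every FKDL library had more counts than any BKDL library, and those of batch 1 had the fewest. FTL, the ferritin light chain gene (chr6:54231121-54232756), followed the same order, with 212 to 450 counts in R1707, 1244 to 2957 in BKDL and 12311 to 62133 in FKDL libraries. In CPM, FTL overlapped between R1707 (22.1 to 53.9) and BKDL libraries (35.0 to 121). That both genes follow the library series was noticed after their values were seen. The HEPACAM locus overlaps 1 other gene of the RefSeq table, and the sources used here do not say whether the counting used strand.

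The cell types of blood were then followed through gene lists, as each list's share of the counts outside the 10 most abundant genes. A change in such a share can come from fewer cells of a type or from less RNA per cell, and whole blood cannot tell these apart. Cytosolic ribosomal protein genes held a median of 7.21% (4.87% in CON 12 to 16.0% in CON 14). Genes of ubiquitin and autophagy in reticulocytes held 3.01% (0.739% in CON 16 to 4.75% in CON 7), and red cell membrane and identity genes 2.65% (0.597% in CON 16 to 5.29% in CON 7). Platelet genes, such as F13A1, encoding a clotting factor subunit (median 445 CPM), and TUBB1, the platelet tubulin (median 368 CPM), held 1.80% and stayed between 1.16 and 2.84%.

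White cell genes took far fewer reads. Mature neutrophil genes held a median of 0.4925%, from 0.178% in CON 19 to 1.74% in CON 16, and interferon-stimulated genes 0.338% (0.127 to 0.716%). T cell genes held 0.249% (0.116 to 0.525%), monocyte genes 0.212% (0.106 to 0.439%), B cell genes 0.0674% (0.0427 to 0.0927%) and natural killer (NK) cell genes 0.0527% (0.0263 to 0.0992%). The order of lists says nothing about cell numbers, since lists differ in the number and length of their genes. Early granule genes of neutrophils held a median of 0.0674%, from 0.0173% in CON 19 to 0.404% in CON 16, the same piglets that were lowest and highest for mature neutrophil genes.

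**Figure D3:**
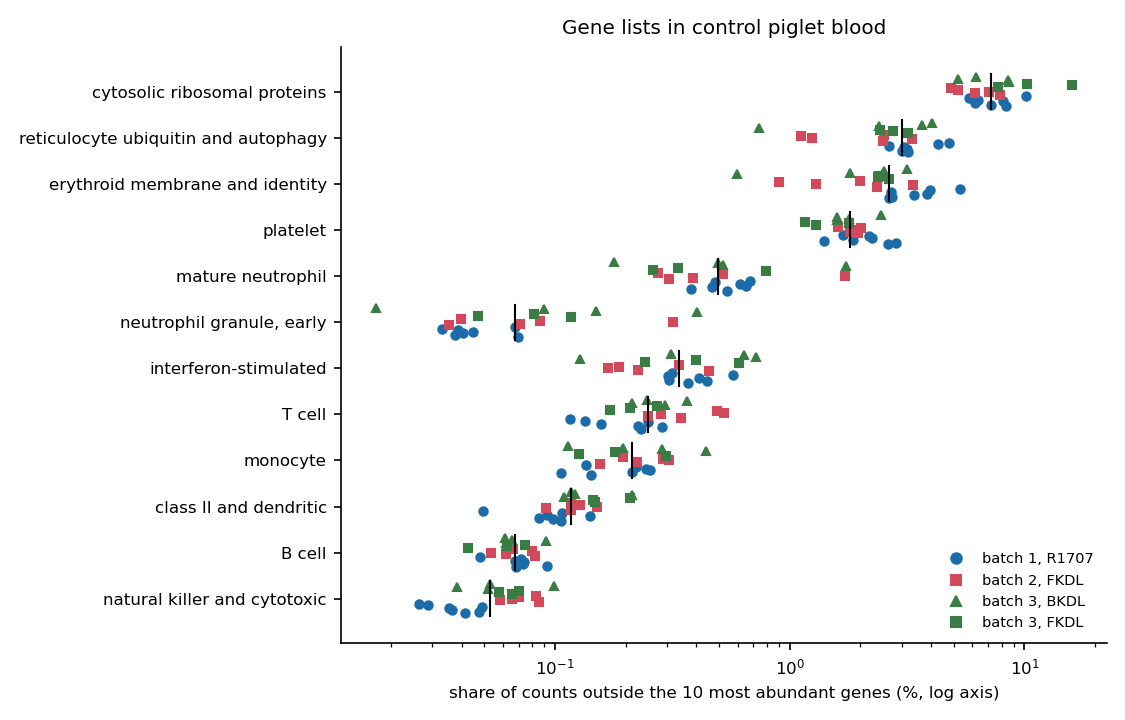
Points give each control piglet's share, in percent of the counts outside the 10 most abundant genes on a log axis, for 12 gene lists, coloured by batch. The medians of the red cell membrane and identity list and of the reticulocyte list lie above those of the white cell lists drawn, and mature neutrophil genes spread from 0.178 in CON 19 to 1.74% in CON 16.

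Library composition differed between batch 1 and the later batches. The 10 most abundant genes held 90.4% ± 1.73 of counts in batch 1 (SD, n = 7), 76.1% ± 10.3 in batch 2 (n = 5) and 79.9% ± 17.7 in batch 3 (n = 7; 86.5% ± 2.69 without CON 16). The difference from batch 1 was -14.3 percentage points for batch 2, with no overlap between the piglets (exact permutation p = 0.00126, the smallest possible; adjusted p = 0.0171 over 27 comparisons), and -10.5 points for batch 3 (exact permutation adjusted p = 0.0213). The share of ENSSSCG00000007978 differed by -6.74 points, at 19.4% in batch 2 and 26.1% in batch 1 (exact permutation adjusted p = 0.0265). HBB itself, at 61.3% ± 4.49 in batch 1, 53.0% ± 8.22 in batch 2 and 53.5% ± 13.5 in batch 3, missed the threshold against batch 1 (exact permutation adjusted p = 0.0930 and 0.185).

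Ribosomal protein genes took larger shares of all counts in both later batches, and mitochondrially encoded genes did so in batch 2. Ribosomal protein genes held 0.7997% ± 0.163 in batch 1, 1.69% ± 0.623 in batch 2 and 2.03% ± 1.73 in batch 3 (exact permutation adjusted p = 0.0171 and 0.0210). Without CON 16 their batch 3 share was 1.40% ± 0.475, below that of batch 2. Mitochondrially encoded genes rose from 0.272% ± 0.116 to 0.564% ± 0.156 in batch 2 (exact permutation adjusted p = 0.0213). In batch 3 mitochondrially encoded genes held 0.349% ± 0.203 (exact permutation adjusted p = 0.595), and 0.273% without CON 16. On the TMM scale used below the mitochondrial list read lower than batch 1 in both later batches, with median log2 fold changes of -0.76 and -0.94. By the gene test below, ATP8 alone of its 13 genes was called in batch 2, and it rose, while 2 fell in batch 3. Over all genes tested, 0.79% were called higher in batch 2 and 1.35% lower in batch 3. The ATP8 call was lost without any 1 of 11 libraries. Counts on genes were 3.07 M higher in batch 2 than in batch 1, without overlap (exact permutation adjusted p = 0.0171). Of the 27 comparisons 10 passed, all of them against batch 1; none between batches 2 and 3 did. Reads aligned to several places made up 28.5% of the total in batch 1, 31.02% in batch 2 and 39.1% in batch 3, and ambiguous reads 9.92 to 14.6% in batch 1 against 2.10 to 6.36% in the other 2; their part in these differences was not tested. Without the title-17 piglets CON 1 and 2, none of the 27 comparisons passed (exact permutation, smallest adjusted p = 0.0714), although 8 had an unadjusted p under 0.05. With 5 piglets left in batch 1 the smallest p that batch 2 against batch 1 can give is 0.00794. All 10 differences that had passed kept their direction, at 0.881 to 1.19 times their size with all piglets. The number passing also moved with single libraries: 5 comparisons passed without CON 2, without CON 4 or without CON 6, and 13 passed without CON 16. With 1 batch 1 library left out, the smallest p that batch 2 against batch 1 can give is 0.00216. The shares of ribosomal protein genes and of the 10 most abundant genes in batch 3 lost their call against batch 1 without any 1 of the 7 batch 1 libraries, that of mitochondrial genes in batch 2 without CON 1, 2, 4, 5 or 6, and that of ENSSSCG00000007978 without CON 2, 3, 4 or 6.

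Gene by gene, edgeR's quasi-likelihood test compared the batches of control piglets with sex as a term, calling a gene at a Benjamini-Hochberg adjusted p, or false discovery rate (FDR), under 0.05. Of 10375 genes tested, 361 differed among the 3 batches (3.48%). Between batch 2 and batch 1, 82 were higher (0.79% of those tested) and 258 lower (2.49%), together 3.28%. Between batch 3 and batch 1, 102 were higher (0.983%) and 140 lower (1.35%), together 2.33%. Between batches 3 and 2, 3 were higher (0.0289%) and 5 lower (0.0482%), together 0.0771%. The comparisons with batch 1 share its 7 libraries; 105 genes were called in both, 30.9% of one list and 43.4% of the other. These values are relative to the median gene: in CPM of all counts, without TMM, the median gene was 2.02 (log2) higher in batch 2 and 1.30 higher in batch 3 than in batch 1, and 9443 genes were called higher in batch 2 and 7052 in batch 3. Batch, library series and, in batch 1, title number cannot be told apart from differences between litters or dates. The number called moved with single libraries. For batch 2 against batch 1 it was 208, 148, 221, 88 and 183 without CON 4, 7, 8, 11 and 12. For batch 3 against batch 1 it was 148, 158, 116, 156, 127 and 133 without CON 1, 2, 4, 5, 6 and 7, 125, 159, 152 and 116 without CON 13, 15, 16 and 18, 393 without CON 10 and 30 without all 4 BKDL libraries.

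CTR9, a subunit of the PAF1 complex that travels with RNA polymerase (chr2:48700629-48729480), was highest in batch 2. It lay between 4.18 and 6.10 CPM in batch 1 (median 5.68), was 35.8, 33.9, 94.2, 52.2 and 42.6 CPM in CON 8 to 12, and lay between 5.68 and 18.1 CPM in batch 3 (median 8.94). No batch 2 piglet overlapped with either of the other batches. CTR9 was higher in batch 2 than in batch 1 by a log2 fold change of 3.15 ± 0.30 (SE; edgeR FDR = 4.67e-06) and lower in batch 3 than in batch 2 by -2.30 (edgeR FDR = 0.00034); both calls held when any 1 library was left out. Without the 4 BKDL libraries the second missed the threshold (-1.82, edgeR FDR = 0.0552). Inside batch 3 the FKDL libraries, at 10.8 to 18.1 CPM, were all above the BKDL libraries, at 5.68 to 8.94 CPM, a pattern noticed after the values were seen.

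Other named genes were highest in batch 1. COX7A2, a subunit of cytochrome oxidase (chr1:90696746-90703407), had 37.3 to 113 CPM in batch 1 (median 44.7), 18.8, 30.0, 15.8, 9.10 and 8.26 CPM in CON 8 to 12, and 6.05 to 21.4 CPM in batch 3 (median 9.40). Every batch 1 piglet was above every other piglet, and the log2 fold changes were -2.13 ± 0.32 in batch 2 (edgeR FDR = 0.00112) and -2.33 ± 0.28 in batch 3 (edgeR FDR = 0.00014). COX17, which brings copper to that oxidase, fell by 2.25 on the log2 scale in batch 3 (edgeR FDR = 0.00169), and ATOX1, another copper chaperone, fell by 3.03 in batch 2 and 2.34 in batch 3 (edgeR FDR = 0.00647 and 0.0131). ATP5IF1, at 3136 to 7418 CPM in batch 1, 707, 1717, 752, 251 and 682 CPM in CON 8 to 12 and 173 to 2833 CPM in batch 3, fell by 2.95 and 1.83 (edgeR FDR = 0.00342 and 0.0293). Its batch 1 piglets were all above the rest.

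Further named genes showed changes of similar size. Higher in batch 2 than in batch 1 were FTL by 4.22 (edgeR FDR = 0.00774), FN1, encoding fibronectin, by 2.56 ± 0.54 (edgeR FDR = 0.0113), and the chemokine gene CCL5 by 2.14 ± 0.51 (edgeR FDR = 0.0247). Lower were GLOD5 by -3.20, SPINK4 by -2.91, the potassium channel gene KCNN3 by -2.81 and AHSP by -2.67. In batch 3, MAST2, a kinase gene, was higher than in batch 1 by 1.80 ± 0.32 (edgeR FDR = 0.00435), SCPEP1, a carboxypeptidase gene, higher by 1.47 (edgeR FDR = 0.00563) and the ubiquitin-like UBL5 lower by -2.35 (edgeR FDR = 0.00281). Between batches 3 and 2, FAM178B was higher by 2.02 and KIF1A, an axonal motor gene, lower by -1.54 (edgeR FDR = 0.0441 for both).

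How firmly these differences are tied to the batch label varied. Of the named results, 16 of 32 for batch 2 against batch 1, 15 of 28 for batch 3 against batch 1 and 1 of 3 for batch 3 against batch 2 held whichever single library was left out. Each of the 16 results lost for batch 2 was lost without CON 11: FTL, FN1 and CD8B without that library alone, CCL5 also without CON 7, CD79A without CON 12, and AHSP without CON 7 or 12. ESAM, IFIT1, ISG15, COL3A1 and GNG11 were lost without 5, 5, 6, 9 and 10 of the libraries. For batch 3 against batch 1, COL3A1 was lost without CON 18, TRIM25 without CON 4 or 18, FTL without CON 1, 4, 7 or 11, UBB and CD9 without 5 and 9 libraries, and CX3CR1 and AHSP without 12 each. Against batch 2, KIF1A and FAM178B were lost without 12 and 14 libraries. Without the 4 BKDL libraries, 24 of the 28 results for batch 3 against batch 1 lost their call, with 3 piglets left in batch 3; HEPACAM, FTL, CCL5 and COX7A2 kept theirs. All 3 results for batch 3 against batch 2 lost theirs. Ambiguous reads were higher in batch 1, as given above. Of called genes, 241 of 340 for batch 2 and 178 of 242 for batch 3 matched the RefSeq table, beside 8534 of 10375 tested genes. Among the matched, 30.7% for batch 2 and 35.4% for batch 3 overlap another gene, against 35.2% of tested genes. Called genes without a match are not covered, and the part of overlap in the calls was not tested.

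By cell type, red cell genes read lower in batch 2 relative to the median gene. Of 28 red cell membrane and identity genes tested, 0 rose and 2 fell, GYPC, a glycophorin (-2.15 ± 0.42, edgeR FDR = 0.00669), and AHSP; 2 read above batch 1 and the median log2 fold change was -0.77. Of all genes tested 55.8% read above batch 1, the median was 0.07, and 2.49% were called lower. GYPC had 229 to 824 CPM in batch 1 and 115, 202, 120, 35.5 and 96.2 CPM in CON 8 to 12, without overlap. Of 19 reticulocyte genes, 3 fell, among them UBB and MAP1LC3B, an autophagosome protein gene, and 0 rose (median -0.81). Mean log2 CPM of the red cell list was 5.41 ± 0.50 (SD) in batch 1. It was 4.75 ± 0.84 in batch 2 and 5.10 ± 0.72 in batch 3. CON 11 was the lowest of all piglets for the red cell (3.55) and reticulocyte (4.84) lists, and its part in the list medians was not tested. In CPM of all counts the medians of these lists were above 0, at 1.05 for both, and stayed below that of all genes. Batch 3 lay between, with 1 called gene in each list, AHSP and UBB, and medians of -0.33 and -0.40, beside 0.02 for all genes. The globin list, 4 globin genes and AHSP, had a median of -1.95 in batch 2, and HBQ1, an alpha-like globin, was called lower beside AHSP, which the red cell list holds too.

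T and NK cell genes read higher in batch 2 on the same scale. Of 25 T cell genes tested, 24 read above batch 1 (median 0.64), beside the 55.8% of all genes above, and 3 rose, where 0.79% of all genes were called higher: CD2, an adhesion receptor, ICOS, a costimulatory receptor (1.45, edgeR FDR = 0.0118), and CD8B, the CD8 beta chain (1.43, edgeR FDR = 0.0162). CD2 had 13.03 to 26.6 CPM in batch 1 and 32.2, 29.4, 29.1, 37.2 and 36.6 CPM in CON 8 to 12, without overlap, a log2 fold change of 0.93 ± 0.19 (edgeR FDR = 0.00968). Of 14 NK and cytotoxic genes, 13 read above batch 1 in batch 2 (median 0.81) and IL2RB, a receptor chain for interleukins 2 and 15, rose by 1.05 ± 0.21 (edgeR FDR = 0.00880): 7.59 to 11.2 CPM in batch 1 and 22.6, 17.9, 18.1, 16.3 and 26.0 CPM in CON 8 to 12, again without overlap. In batch 3 the NK median was 0.83, and NKG7, a cytotoxic granule gene, rose by 1.51 (edgeR FDR = 0.00804), while no T cell gene passed (median 0.19). CD79A, part of the B cell receptor, fell in both, by 0.94 and 1.02 (edgeR FDR = 0.0239 and 0.00771), the only one of 22 B cell genes called; in CPM of all counts it read above batch 1 in both.

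Called genes of the myeloid and platelet lists are set beside the shares of all genes tested. In batch 2 these were 0.79% called higher and 2.49% lower, and in batch 3 they were 0.983% and 1.35%. CX3CR1, the fractalkine receptor of patrolling monocytes, rose by 2.80 ± 0.41 in batch 2 (edgeR FDR = 0.000723) and by 1.44 in batch 3, the only one of 14 monocyte genes called; it had 0.197 to 1.24 CPM in batch 1 and 3.01, 6.80, 2.48, 2.70 and 2.73 CPM in CON 8 to 12. The lowest batch 1 values of CX3CR1 rest on very few counts. None of 17 mature neutrophil and 7 granule genes was called in any contrast of batches by edgeR. Over all genes tested, 3.48% differed among the 3 batches. Of 25 platelet genes, ESAM and GNG11 fell in batch 2 and CD9, a tetraspanin, fell in batch 3, directions that turned in CPM of all counts.

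Of 30 interferon-stimulated genes, 3 fell in batch 2, with a list median of -0.74. Among the 3 were IFIT1 (-1.68, edgeR FDR = 0.0330) and ISG15, a ubiquitin-like modifier (-2.36, edgeR FDR = 0.0304). In batch 3 only TRIM25, a ubiquitin ligase gene, rose. For this list and those that follow, the shares of all genes were 2.49% called lower and 0.79% higher in batch 2. In batch 3 they were 1.35% and 0.983%. IFIT1 had 138 to 466 CPM in batch 1 and 118, 131, 71.7, 37.9 and 71.8 CPM in CON 8 to 12, without overlap, and read 0.18 above batch 1 in CPM of all counts. Of 11 heat shock genes, HSP90AB1, a cytosolic chaperone gene, rose in batch 3 by 0.97 ± 0.16 (edgeR FDR = 0.00225), from 39.5 to 54.1 CPM in batch 1 to 72.1 to 105 CPM in batch 3, without overlap. NR4A2, an immediate early gene, fell in both later batches by 1.35 and 1.02, except in CPM of all counts, where it read above batch 1. Among 42 ribosomal protein genes, 7 fell in batch 2 and, in batch 3, 3 fell and 1 rose; list medians of -0.65 and -0.02 on this scale stand beside the higher share of all counts above. COL3A1, a fibroblast collagen, had no count in any batch 1 library, where a count of 0 allows up to 0.169 to 0.207 CPM of all counts (3 counts, for counting error only), and 35, 0, 4, 82 and 52 counts in CON 8 to 12; it was called in both later batches.

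Few genes differed by sex in edgeR's test. With batch as a term, edgeR called 10 of 10375 genes between male and female piglets (0.0964%), 8 higher (0.0771%) and 2 lower (0.0193%) in males, and 552 had an unadjusted p under 0.05. The 2 called genes with a symbol were EIF1AY and KDM5D, both Y-linked. Of the genes at 5 CPM or more with a symbol, none passed in edgeR. RPL38, a ribosomal protein gene, read 1.60 ± 0.38 higher in males (log2, edgeR FDR = 0.269). The number depends on the test: DESeq2's called 60 genes, 59 higher and 1 lower in males, with 3 of edgeR's 10 among them. RPL38 and HEPACAM both passed there.

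Several lists leaned one way by sex with no gene of theirs passing in edgeR. In males 27 of 28 red cell genes (median 0.54), 41 of 42 ribosomal protein genes (median 0.74), 13 of 13 mitochondrially encoded genes (median 0.54) and 28 of 30 interferon-stimulated genes (median 0.43) read above females, while 1 of 25 T cell genes did (median -0.29), against 49.2% of all genes above females. In CPM of all counts the median gene read -0.91 in males and the medians of these lists were all below 0, while the first 4 stayed above and T cell genes below the median gene. CON 16, with the lowest red cell share, was female. CON 11, the only female of batch 2, had the lowest mean log2 CPM of red cell genes of all piglets (3.55, TMM scale). In batch 3 all 3 FKDL piglets were male, so sex and library series overlap there. The part of these 2 libraries and of the series in this was not tested.

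Most of the spread between control piglets lay inside batches. The median gene had an SD of 0.536 on the log2 CPM scale within batches and 0.558 over all 19. Batch took a median of 13.6% of a gene's variance. Most of this median is what equal batches would give, since piglets grouped at random also differ in their means. It is therefore not a measure of variance due to batch. For 483 genes (4.66%) batch took over 50%. The common biological coefficient of variation from edgeR was 0.419 without and 0.389 with a batch term. Fitted inside one batch at a time, it came to 0.313 for batch 1, 0.442 for batch 2 and 0.407 for batch 3. Without CON 10 batch 2 fell to 0.319, and without CON 16 batch 3 fell to 0.353.

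Libraries were also compared in pairs. Over the tested genes, log2 CPM correlated with a median r of 0.903 over 171 pairs (0.779 to 0.950), 0.915 for the 52 pairs inside a batch and 0.897 for the 119 across batches; these describe libraries that share all abundant genes, and differ in depth. For 17 of the 19 piglets the most similar other piglet was in the same batch. The exceptions were CON 10 (batch 2, male) and CON 16 (batch 3, female), each of which was most like the other (r = 0.911). Their median r with the other 18 piglets was 0.844 and 0.878, against 0.893 to 0.920 for the remaining 17. On the first principal component, which took 21.3% of the variance, CON 10 (92.3) and CON 16 (52.3) lay at one end and CON 19 (-45.8) at the other. Among genes with a symbol and a mean of at least 5 CPM, HEPACAM, S100A12, S100A8 and LCN2 weighed most at the high end. CON 10 held the highest CPM of all 19 for 1716 of the 10375 genes and CON 16 for 858.

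**Figure D4:**
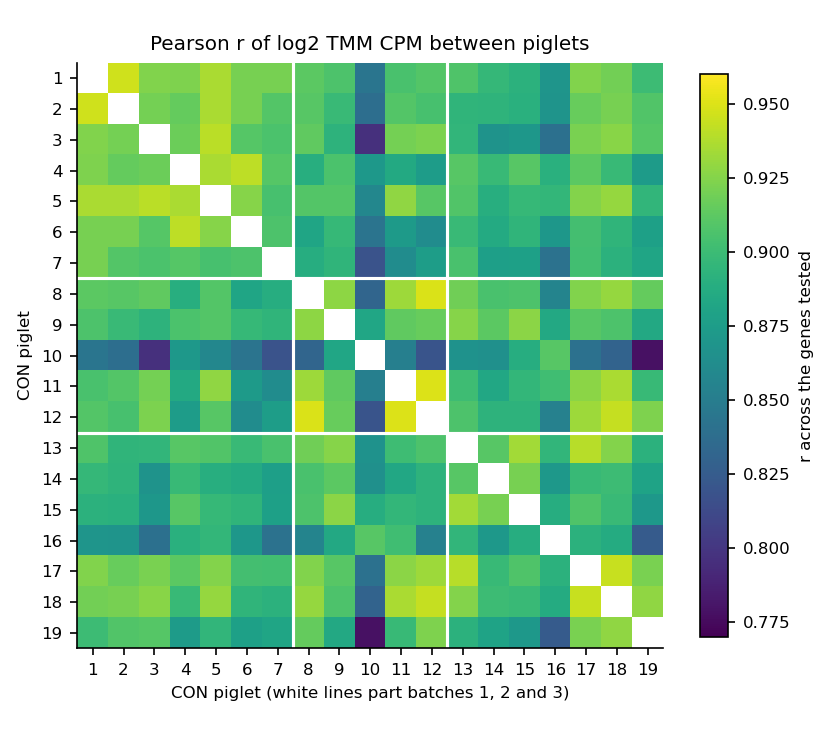
The heat map gives Pearson's r of log2 TMM CPM across tested genes for every pair of the 19 control piglets, with white lines between batches. CON 10 and CON 16 form darker rows, of lower r, against most others (median r of 0.844 and 0.878) and match each other at 0.911.

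Of the 10 named genes that spread most widely between piglets of a batch, 6 are known from neutrophils. S100A8, a calcium-binding alarmin of neutrophils (chr4:96209670-96210603), ran from 0.780 CPM in CON 19 over a median of 56.8 to 558 CPM in CON 10, with 441 CPM in CON 16 and 364 CPM in CON 7; its SD within batches was 2.23 (log2). Its partner S100A12 ran from 2.44 to 1071 CPM (SD 2.15) with the same 3 piglets on top. The collagenase gene MMP8 (0.683 to 136 CPM, SD 2.31), the vitamin B12 binder TCN1 (0 to 37.9 CPM, SD 2.19), lactoferrin, LTF (1.82 to 165 CPM, SD 1.92), and lipocalin, LCN2 (0.878 to 161 CPM, SD 1.86), are all granule proteins of neutrophils. TGM3, HEPACAM and PRR13, which reached 603 CPM in CON 7, were also among the 10.

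MYL4, a myosin light chain of atrial and embryonic muscle (chr12:16774655-16792213), had the highest spread (SD 2.74). It had 56.1 CPM in CON 1, 84.1 in CON 6 and 36.9 in CON 14, and at most 1.48 CPM in the other 16 piglets, in counts 592, 543 and 324 against at most 54. The 3 high piglets were in batches 1 and 3.

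The list medians of the within-batch SD put numbers on this: 1.40 for 7 neutrophil granule genes and 1.06 for 17 mature neutrophil genes, of which 16 were above the median of all genes, against 0.536 for all genes tested. Interferon-stimulated genes had 0.789 (28 of 30 above), red cell genes 0.777 (24 of 28) and ribosomal protein genes 0.609 (30 of 42), while T cell genes had 0.448 (8 of 25). Without CON 10 and 16 the neutrophil lists stayed 0.44 and 0.53 above all genes. In CPM of all counts they stayed above too, by 0.79 and 0.37, but red cell (-0.43), ribosomal (-0.11) and interferon-stimulated (-0.02) genes were below the median gene, T cell genes were 0.05 above it, and the order of those lists therefore holds only on the TMM scale. Of the mature neutrophil genes, 6 of 17 were highest in CON 10, 4 in CON 16 and 7 lowest in CON 19; over all genes tested these shares were 16.5%, 8.27% and 7.77%. Red cell genes were highest in CON 7 for 17 of 28 and lowest in CON 16 for 11, against 8.58% and 5.86% of all genes.

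At the other end were genes with a narrow spread on the TMM scale. CHD4, a chromatin remodeller of the NuRD complex, lay between 23.8 and 37.9 CPM in all 19 piglets (SD within batches 0.120), the splicing-linked SFPQ and NONO between 22.8 and 32.0 and between 23.7 and 35.5 CPM, and IKZF1, the lymphoid transcription factor Ikaros, between 34.0 and 48.8 CPM (SD 0.125). WDR82, RANBP3, RNF31, EIF4H, U2AF2 and the nuclear import factor KPNB1 completed the 10. In CPM of all counts these genes were not narrow: CHD4 ran from 8.20 in CON 7 to 147 in CON 11, and IKZF1 from 11.4 to 160 in the same piglets. A narrow spread inside batches did not mean equal batches: U2AF2, a splicing factor, lay between 36.4 and 50.8 CPM in batch 1 and 23.9 and 29.2 CPM in batch 3, without overlap (-0.60 ± 0.14, edgeR FDR = 0.0284).

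**Figure D5:**
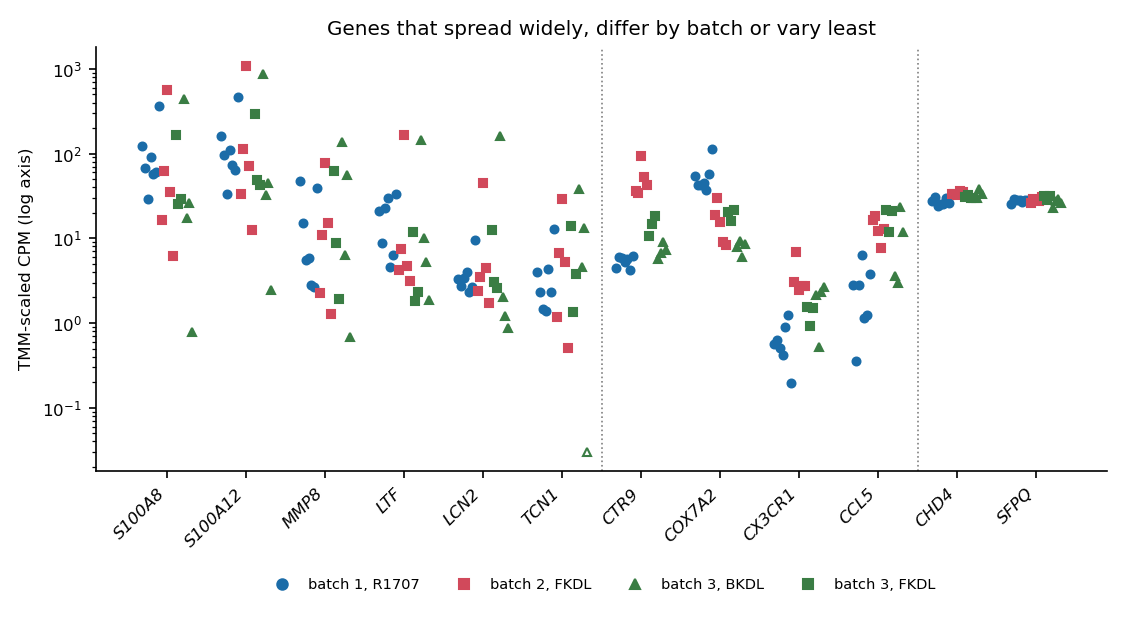
Each point is 1 control piglet's TMM-scaled CPM on a log axis for genes that spread widely, genes that differ by batch and genes that stay narrow, coloured by batch. S100A8 runs from 0.780 to 558 CPM, CTR9 is highest in the 5 batch 2 piglets and, inside batch 3, higher in FKDL than in BKDL libraries, and CHD4 stays between 23.8 and 37.9 CPM.

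Baseline ranges in controls were also read for 8 genes chosen by name from knowledge of the series. AOAH, which deacylates bacterial lipopolysaccharide, lay between 1.06 and 9.33 CPM (median 2.94), the arginase gene ARG2 between 0.683 and 5.27 (median 2.56), the glucocorticoid receptor co-chaperone FKBP5 between 5.89 and 33.9 (median 14.3) and the kinase PAK2 between 9.36 and 22.2 (median 14.3). TUBA1B, an alpha-tubulin, lay between 32.9 and 98.2 CPM, DOK2, a docking protein, between 8.21 and 30.5, ID3, a transcriptional inhibitor, between 1.97 and 11.2, and CD163, the haemoglobin scavenger receptor of macrophages, between 6.48 and 153 CPM; its highest value was that of CON 16, and the next was 57.5 CPM in CON 13. None of the 8 was called between batches by edgeR.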

How the data were processed

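Whole-blood RNA of 39 piglets was sequenced, and the 19 control libraries were used. Per the labels' protocols, RNA came from a MagMax blood kit, libraries from a VAHTS mRNA-seq kit and paired-end reads from an Illumina sequencer. The authors deposited unnormalized read counts, with a file for each piglet and Ensembl gene IDs. The submitters' processing notes name the build Sscrofa11.1 and the tools Trim Galore, TopHat, HTSeq and DESeq2. Which versions, annotation and strand setting were used is not stated there. Closing lines of each file that name no gene were left out of totals and fits: of all reads in the file, ambiguous reads made up 2.10 to 14.6%, reads outside features 0.429 to 5.80% and reads aligned to several places 16.4 to 51.9%. Reads of near-identical copies, globins and ribosomal proteins among them, are uncertain, since those aligned to several places went to no gene. Symbols came from a table of Ensembl names (14857 of 25880 genes) and coordinates from a RefSeq table of Sscrofa11.1.

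Genes were tested with edgeR 4.0.16 in R 4.3.3 (quasi-likelihood F test, robust, TMM scaling, filterByExpr by batch with a minimum count of 10, batch and sex as terms, Benjamini-Hochberg adjustment, FDR 0.05), leaving 10375 genes, 9037 with a symbol. An SE is |log2 fold change| over the root of F. Log2 CPM used a prior count of 2. Library shares were compared by exact two-sided permutation tests of the difference in means. No 2 libraries agreed within sampling noise (lowest chi-square per degree of freedom 8.53 over 171 pairs). The labels name separate piglets; piglet numbers follow the order of the records and pair nothing. The scripts were tested on simulated data. Alternatives included DESeq2 1.42.0 and limma 3.58.1. Named genes were the 10 most abundant and the next 20 with a symbol; of genes at 5 CPM or more, the 10 widest and 10 narrowest and, per contrast, up to 6 higher and 6 lower called ones (the 3 smallest p where none was called); per list, up to 4 by level and 3 called; and 8 by name. A few of these are not reported here. MYL4, HEPACAM and FTL patterns by library were seen first and then described. A ranking per kilobase was planned and not made, since no transcript lengths were used here. The members, lists and tests were chosen with earlier results of these data known.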

Additional observations from a re-analysis of the deposited data

Results flagged for a closer look

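In 93 groups of 5 or 7 libraries (library measures and list means, by batch), a library was looked for that lay far from the nearest other of its batch relative to the batch's range; 10 were found, where chance gives about 1 in 20. Of these, 9 were CON 16 in batch 3. The groups are not independent, since the shares are parts of one total and some lists share genes. The 9 are therefore 1 library seen through linked measures. Its share of counts was 23.44% on HBB (nearest other piglet 56.13%), 10.89% on ENSSSCG00000007978 (21.69%), 40.19% on the 10 most abundant genes (82.9%), 0.8036% on mitochondrially encoded genes (0.3071%) and 5.82% on ribosomal protein genes (1.867%). Its counts outside the 10 most abundant genes were 11.48 M (mega) (nearest 3.654 M). On the TMM scale its mean log2 CPM was 3.622 for red cell membrane and identity genes (nearest 4.921), 7.336 for the globin list with AHSP (9.416) and 1.77 for fetal and developmental red cell genes (2.885). In batch 1, CON 5 had a mean log2 CPM of 1.258 for B cell genes (nearest 1.539).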

How the results depend on the processing

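Counts of called genes are given here as any batch, batch 2 against 1, batch 3 against 1, batch 3 against 2, and sex, beside 361, 340, 242, 8 and 10. DESeq2's test gave 822, 667, 534, 66 and 60. In CPM of all counts, chosen after seeing the data, they were 9068, 9457, 7071, 17 and 26, with 99.85% and 99.73% of the calls against batch 1 higher, against 24.12% and 42.15%. Limma voom gave 158 and no low-count filter 152 for batch 3 against 1; batch 3 against 2 had 1 call with a filter of 1 CPM (sex 6), 1 without the 10 most abundant genes (0 higher) and 3 with no sex term. Without the 4 BKDL libraries the counts were 224 for any batch, 30 for batch 3 against 1 and 3 for batch 3 against 2. Without the title-17 piglets they were 146 for batch 3 against 1 and 3 for batch 3 against 2, and 0 library shares passed in place of 10. Without CON 10 and 16, also chosen after seeing the data, they were 569, 637 and 23 for any batch, batch 2 against 1 and batch 3 against 2.

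Leaving out 1 library gave 179 to 495 for any batch (203, 238, 183 and 179 without CON 4, 6, 7 and 11), 88 to 425 for batch 2 against 1, 116 to 393 for batch 3 against 1, 1 to 10 for batch 3 against 2 (moved over 1.5 times by 15 of the 19), 10 to 12 for sex and 5 to 13 for library shares; no named gene reversed. The median SD within batches was 0.9152 without TMM and 0.4224 for genes at 5 CPM or more, and 0.5007 to 0.5471 with 1 library left out, beside 0.5357.

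Named genes reversed in CPM of all counts alone. Against batch 1, batch 2 then read ESAM 0.70, GNG11 0.63, CD79A 1.07, IFIT1 0.18, NR4A2 0.60, RPL35 0.20, RPS28 0.52, BIRC5 0.24 and MAP1LC3B 0.74 (log2), and batch 3 read CD9 0.48, CD79A 0.30, CXCR4 0.40, NR4A2 0.28, ATP6 0.12 and ND3 0.0165; on that scale the median gene itself read 2.02 and 1.30 higher. Of 65 named results, DESeq2's size factors kept all 65 and no sex term lost 21. No paired analysis was possible because the piglet numbers only follow the order of the records. Depth limits low genes most in batch 1.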

Other observations

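Some blood genes whose levels are not given above also have a baseline in these controls. HBZ, the embryonic zeta-globin gene (chr3:41490758-41492883), lay between 6.06 CPM in its lowest piglet and 162 CPM in its highest, with a median of 63.4 CPM, so it was read in all 19. The basophil and mast cell genes MS4A2, a chain of the IgE receptor, and HDC, the histamine-forming enzyme, had medians of 5.07 and 2.35 CPM. CD74, the invariant chain of class II antigen presentation, lay between 50.2 and 173 CPM (median 85.0), and HLA-DRA between 9.26 and 44.3 CPM.

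Stress and division genes varied in how widely they spread. On the TMM scale the chaperone gene HSPA8 lay between 56.8 and 109 CPM, with an SD within batches of 0.201 (log2), and the replication helicase gene MCM7 between 7.52 and 13.6 CPM (SD 0.227), against a median SD of 0.536 over all tested genes. Their lists as a whole had median SDs of 0.4625 for 11 heat shock genes and 0.5716 for 20 cell cycle genes, 12 of which were above the median gene. In CPM of all counts HSPA8 ran from 24.4 to 433 and MCM7 from 3.26 to 59.8. SGK1, a kinase gene induced by glucocorticoids, spread more, from 9.54 to 159 CPM (SD 0.997), while TXNIP lay between 49.0 and 269 CPM (SD 0.519). IER2, an immediate early gene, rose in batch 3 against batch 1 by 0.97 ± 0.21 (edgeR FDR = 0.0168), whichever single library was left out, from 5.11 to 9.81 CPM in batch 1 to 9.64 to 18.7 CPM in batch 3, with ranges that overlap.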
